A study of Mus musculus with 4 samples.

Results

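The synaptic vesicle release machinery is represented here by 35 genes, picked by name from 35857 listed genes: SNARE proteins, complexins, synaptotagmins, synapsins, vesicle membrane proteins, active zone scaffolds and a few factors of endocytosis. All 35 were found by symbol in every table. The list was chosen with earlier results of these data known. They were followed in mouse glial progenitors, derived from stem cells of the embryonic cortex and collected on day 1, 24 hours after glial differentiation was induced. The series held 4 libraries of poly(A) RNA from C57BL/6 cells, 2 of wild type genotype (control) and 2 of genotype Qk-/- (Qk_KO). Both groups were differentiated for the same time. Qk encodes Quaking, an RNA-binding protein of glia and neural stem cells. The sources used here do not give how Qk was deleted, the embryonic stage, or whether cultures of a group were separate, so the spread between libraries may be partly technical.

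Neurons release transmitter when a vesicle fuses with the presynaptic membrane. A SNARE on the vesicle, synaptobrevin (Vamp genes), zips up with syntaxin and SNAP25 on the plasma membrane, complexins hold and then assist the assembled complex, and synaptotagmins couple fusion to calcium. Munc13 and RIM proteins prepare vesicles at the active zone, and NSF with its SNAP adaptors takes the spent complexes apart. Stem cells and glia also secrete, largely with broadly expressed relatives such as SNAP23 and cellubrevin (Vamp3), while the genes described here are best known from neurons. Levels are given as TPM, a share of all transcripts corrected for length, so they can be compared between genes. TPM keeps no read depth, and the depth behind each value is unknown.

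Qk itself stood at 208 and 215 TPM in the control libraries and at 36.1 and 43.7 TPM in the Qk_KO libraries. Its log2 difference, Qk_KO minus control on the log2(TPM + 1) scale used throughout, was -2.38 ± 0.12 (SE; limma, adjusted p = 0.00708), and all 4 libraries lay on the side of their labels. Neural stem cell markers were abundant in every library, with the 8 genes of that list summing to between 5763 and 6279 TPM, mostly Fabp7 and Vim. Of the 8, Pax6 was called higher, at 24.0 and 17.9 TPM in control and 48.9 and 45.8 TPM in Qk_KO (log2 difference 1.15, SE 0.16, adjusted p = 0.0423 by limma). The share called higher over all genes tested was 1.83%. Xist, the RNA of the inactive X chromosome, was at 62.2 and 57.6 TPM in the controls but differed within Qk_KO, at 0.04 TPM in replicate 1 and 62.5 TPM in replicate 2. The knockout libraries thus stood apart from each other in this RNA. GABAergic neuron markers (Gad1, Gad2, the Dlx genes and Slc32a1) summed to 139.8 TPM in Qk_KO replicate 1 and to between 6.12 and 11.6 TPM elsewhere.

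The t-SNAREs Snap25 and Stx1a, the complexin Cplx1 and the calcium sensor Syt7 rose in the knockout, by 1.95-fold to 3.24-fold in mean TPM. No member was called lower, although 5 of the 33 tested had log2 fold changes below 0. Of the 35 members, 33 averaged 1 TPM or more across the 4 libraries and were tested within a limma fit over all 13260 genes that passed. With Benjamini-Hochberg adjustment over all of these and a threshold of 0.05, 4 members were called higher, 0 lower and 29 were not called. Over all genes tested, 1.83% were called higher and 1.42% lower, and 54.4% had log2 fold changes above 0. The median log2 fold change was 0.39 over the 33 members and 0.04 over all genes tested, on the log2(TPM + 1) scale. Over all 35 members with no filter the median was 0.38. Since the list was chosen with earlier results known, these contrasts with all genes describe it and test nothing. In bulk RNA, more cells of a type and more RNA per cell cannot be told apart.

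**Figure D1:**
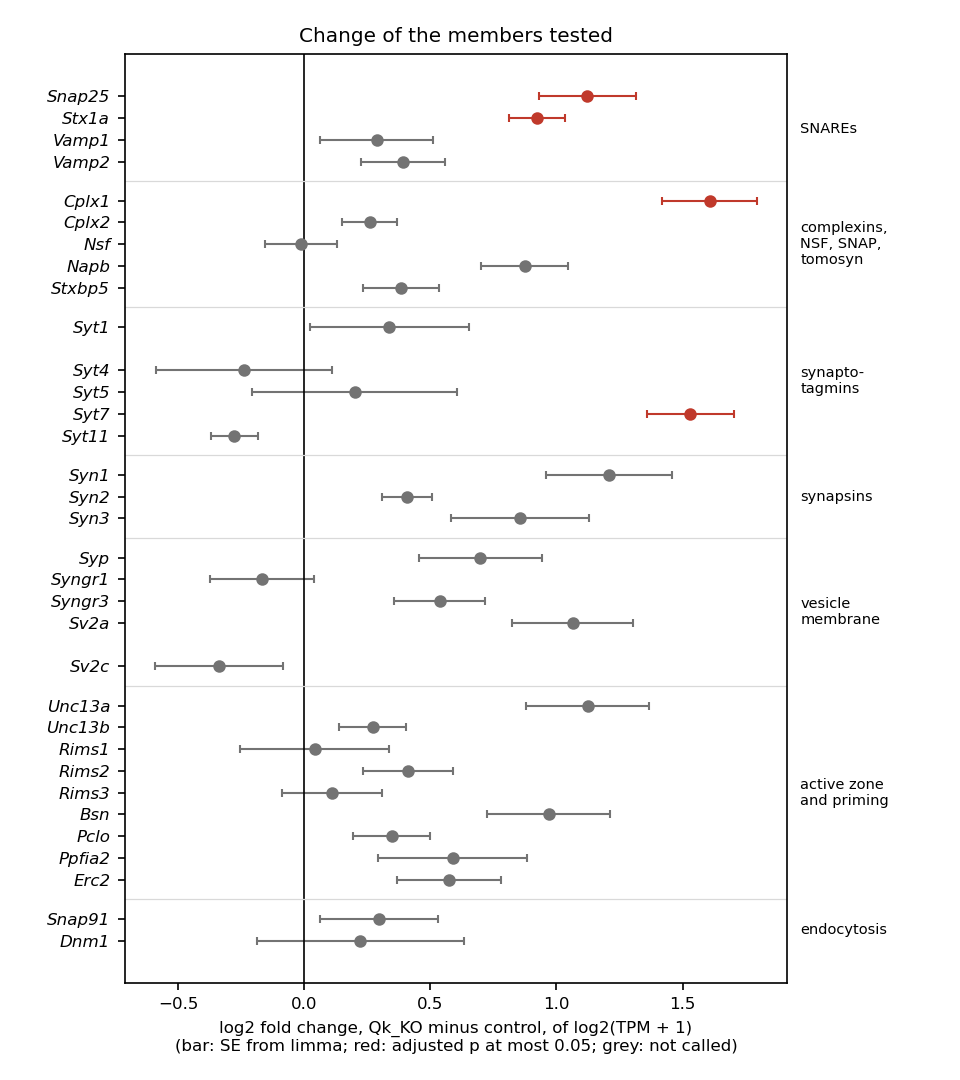
Log2 fold change (x axis, Qk_KO minus control, of log2(TPM + 1)) of the 33 members tested, ordered by role, with the SE from limma as bars. The 4 called members, in red, lie between 0.92 and 1.61, and 28 of the 33 points lie right of 0.

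Promoter sequences are shown for the called members that the RefSeq table held, Cplx1 and Stx1a. Both windows are the 250 bases before the annotated start, on GRCm38.p6, printed 5′ to 3′ on the gene's own strand. Capitals mark a GC box (GGGCGG, searched on both strands), the short motif bound by Sp1-type factors. The window of Cplx1 is chr5:108550028-108550277 on the minus strand and that of Stx1a is chr5:135023232-135023481 on the plus strand.
Cplx1: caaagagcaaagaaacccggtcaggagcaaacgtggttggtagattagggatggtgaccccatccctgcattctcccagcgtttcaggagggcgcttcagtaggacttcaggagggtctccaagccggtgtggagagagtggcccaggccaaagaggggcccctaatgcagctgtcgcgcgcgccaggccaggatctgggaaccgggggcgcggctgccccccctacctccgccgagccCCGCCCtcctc
Stx1a: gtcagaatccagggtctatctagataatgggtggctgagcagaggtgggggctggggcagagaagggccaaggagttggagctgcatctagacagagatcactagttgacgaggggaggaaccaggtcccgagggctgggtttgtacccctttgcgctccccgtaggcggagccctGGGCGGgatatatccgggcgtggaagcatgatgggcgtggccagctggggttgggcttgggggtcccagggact

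Both windows were rich in G and C, at 64.8% for Cplx1 and 62.0% for Stx1a, and each held 1 GC box. The RefSeq table gave 33 windows for 27 of the 35 members, and Snap25, Syt7, Vamp2, Syt4, Syt5, Syn3, Syngr3 and Rims2 had no entry. A GC box was present in 20 of the 33 member windows (60.6%) and in 32.7% of all 32851 windows of that length. The median GC share was 61.2% in member windows and 52.4% in all windows. A full cAMP response element (TGACGTCA) was found for Syn1 alone among the 27 members matched and in 1.55% of all windows. The parts of the REST binding site, CAGCACC and, after a gap of 2 bases, GGACAG, were found in 0 member windows and in 0.0335% of all windows. These matches describe letters only.

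Quaking binds RNA at the core letters ACTAAC or ACTAAT (in DNA letters), and the 3' untranslated regions of the members were searched for it on the transcript strand. The core was present in 12 of 35 members (34.3%) and in 32.0% of the 12245 genes tested with such a region in GENCODE M21. Per length the members held fewer cores, 0.187 per kb against 0.342 per kb. The sets differ, since the 12 include Sv2b and Syt2, with 2 cores each, which were under the filter and not tested. Among the called members, Cplx1 and Syt7 each had 1 core, and Snap25 and Stx1a had none. The 2 sites are shown with the core in capitals, Cplx1 from chr5:108519840-108519869 on the minus strand and Syt7 from chr19:10451788-10451817 on the plus strand of GRCm38.
Cplx1 site: ggacccctccttACTAATcttaagttcacc
Syt7 site: tctcagatcaagACTAATccctacaattca

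A core with a second TAAC or TAAT within 24 bases, the arrangement Quaking is known to prefer, was found in 2 of the 35 members, Pclo and Sv2c, or 5.71%. Over all genes tested with a 3' untranslated region it was found in 13.6%, a set without the untested members Sv2b and Syt2. Neither Pclo nor Sv2c was called.

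Snap25 (Entrez gene 20614, chromosome 2, 136713453 to 136782428, plus strand, GRCm38), a membrane-bound SNARE of neurons, was at 18.2 TPM in the first control and 12.8 TPM in the second. The Qk_KO libraries held 31.6 and 37.5 TPM. The groups did not overlap, and each differed less within itself than from the other. Means were 15.5 ± 3.78 and 34.5 ± 4.24 TPM (SD, n = 2), with a log2 difference of 1.12 ± 0.19 (SE; limma, adjusted p = 0.0481).

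Stx1a (Entrez gene 20907, chromosome 5, 135023482 to 135051100, plus strand), the plasma membrane syntaxin of neurons, had the most even replicates of the called members. It was at 15.7 and 16.2 TPM in the controls and at 31.5 and 30.6 TPM in Qk_KO. Libraries of a group were within 1.03-fold of each other, and the groups did not overlap. The log2 difference was 0.92 ± 0.11 (SE; limma, adjusted p = 0.0333).

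The vesicle SNAREs were not called. Vamp2, the main synaptobrevin of the forebrain, was at 71.1 and 53.2 TPM in control and at 75.1 and 87.4 TPM in Qk_KO, a log2 difference of 0.39 ± 0.17 (SE; limma, adjusted p = 0.194). The higher control and the lower knockout library were close together, although the groups did not overlap. Vamp1, a second synaptobrevin, was low throughout, between 1.59 and 2.77 TPM.

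Of the complexins, 1 rose, beside 1.83% called higher over all genes tested. Cplx1 (Entrez gene 12889, chromosome 5, 108518554 to 108550024, minus strand) was at 14.4 and 13.7 TPM in the controls and at 37.4 and 53.9 TPM in Qk_KO. The controls were nearly equal, the knockout libraries were both well above them, and replicate 2 was the higher. Its log2 difference of 1.61 ± 0.19 (SE; limma, adjusted p = 0.0324) was the largest of the 33 members tested. Cplx2, the other main brain complexin, was at 41.6 and 43.1 TPM in control and 47.7 and 54.2 TPM in Qk_KO. It was the more abundant complexin in the controls, and in the knockout the pair stood at similar levels. Its log2 difference was 0.26 ± 0.11 (SE; limma, adjusted p = 0.195).

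The recycling enzyme Nsf, the ATPase that every cell uses to separate SNAREs, was at 63.4 and 61.4 TPM in control and 54.5 and 70.4 TPM in Qk_KO. Both controls lay between the knockout libraries, and the log2 difference was -0.01 ± 0.14 (SE; limma, adjusted p = 0.969). Napb, the brain form of its SNAP adaptor, was at 6.46 and 4.93 TPM in control and 10.8 and 11.6 TPM in Qk_KO. Those groups did not overlap, and the adjusted p of 0.0552 by limma missed the threshold at a log2 fold change of 0.87 (SE 0.17). Stxbp5, tomosyn, which holds syntaxin and SNAP25 away from synaptobrevin, was at 9.80 ± 0.445 and 13.1 ± 1.72 TPM (SD, n = 2) and was not called.

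Of the 5 synaptotagmins tested, 1 rose, beside 1.83% called higher over all genes tested. Syt7 (Entrez gene 54525, chromosome 19, 10389090 to 10453180, plus strand), a slow, high-affinity calcium sensor that also acts in lysosome exocytosis and vesicle replenishment, was at 9.42 and 12.3 TPM in control and at 30.1 and 36.2 TPM in Qk_KO. Both knockout values were far above both controls. The log2 difference was 1.53 ± 0.17 (SE; limma, adjusted p = 0.0324). Syt11, which lacks calcium binding and acts in membrane traffic of many cells, was the most abundant of all 35 members. It was at 258 and 242 TPM in control and 212 and 200.2 TPM in Qk_KO, with a log2 difference of -0.28 ± 0.09 (SE; limma, adjusted p = 0.127). Here both knockout values were the lower ones, and the call was missed.

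Syt1, the fast sensor of forebrain synapses, was low, at 3.85 and 2.57 TPM in control and 3.03 and 5.85 TPM in Qk_KO, and the groups overlapped. Syt4 and Syt5 overlapped as well, at means of 3.76 ± 0.53 and 3.26 ± 1.97 TPM, and 4.78 ± 2.51 and 5.58 ± 2.63 TPM, in control and Qk_KO (SD, n = 2). Syt2, a fast sensor of hindbrain and inhibitory synapses, was nearly absent, at 0.06 and 0.04 TPM in control and 0.25 and 0.44 TPM in Qk_KO. It was under the filter and was not tested. Of the 6 synaptotagmins listed, Syt7 was the 1 called, and 1.83% of all genes tested were called higher.

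Synapsins tether vesicles in the reserve pool and are coded by 3 genes, all with higher values in both knockout libraries and none called. That order was found for 33.6% of all genes tested. Syn1 was at 16.2 and 11.1 TPM in control and 26.6 and 39.4 TPM in Qk_KO. Replicates differed by 1.46-fold in control and 1.48-fold in Qk_KO while the groups stayed apart, and the log2 difference was 1.21 ± 0.25 (SE; limma, adjusted p = 0.0599). Syn2, the most abundant synapsin, was at 40.6 and 42.2 TPM in control and 56.7 and 53.6 TPM in Qk_KO, a smaller difference with closer replicates (log2 fold change 0.41, SE 0.10, adjusted p = 0.0749 by limma). Syn3 was at 4.20 ± 0.608 and 8.68 ± 3.37 TPM (SD, n = 2).

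Proteins of the vesicle membrane gave no call either. Sv2a, a vesicle glycoprotein and the target of the drug levetiracetam, was at 28.1 and 23.9 TPM in control and 43.2 and 70.5 TPM in Qk_KO. The groups were apart, with the wider spread in the knockout (log2 fold change 1.07, SE 0.24, adjusted p = 0.0676 by limma). Syp, synaptophysin, was at 33.3 and 30.4 TPM in control and 40.2 and 67.8 TPM in Qk_KO, and again knockout replicate 2 was the highest library (adjusted p = 0.14 by limma). Syp and Syn1 lie on the X chromosome, and in Qk_KO both were higher in replicate 2, the library with Xist. That order held for 27 of the 33 members tested, among them Sv2a on chromosome 3 and Cplx1 on chromosome 5. The part of the Xist difference in the values of Syp and Syn1 was not tested.

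Neither synaptogyrin was called. Syngr1 was at 49.5 and 42.6 TPM in control and 33.3 and 49.9 TPM in Qk_KO, so the controls lay between the knockout libraries (log2 fold change -0.17, SE 0.21, adjusted p = 0.624 by limma). Syngr3, a more neuronal synaptogyrin, was at 23.2 ± 2.66 and 34.5 ± 7.57 TPM (SD, n = 2) with no overlap and no call. The other Sv2 genes were scarce. Sv2c was between 0.81 and 1.78 TPM and, at a log2 fold change of -0.34 (SE 0.25), was not called. Sv2b was under the filter, at 0.58 TPM in each control and at 0.08 and 0.28 TPM in Qk_KO.

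Of the 9 active zone and priming genes, all had log2 fold changes above 0, 7 had both knockout values above both controls, and none was called. Among all genes tested, 54.4% had log2 fold changes above 0 and 33.6% had both knockout values above both controls. Unc13a, the main Munc13 priming factor, was at 18.3 and 11.8 TPM in control and 28.7 and 38.5 TPM in Qk_KO. These values did not overlap, but both groups were spread (log2 fold change 1.12, SE 0.24, adjusted p = 0.0632 by limma). Its relative Unc13b, also active outside neurons, was at 12.8 ± 1.16 and 15.7 ± 0.63 TPM (SD, n = 2). Bsn, the scaffold bassoon, was at 6.36 and 4.24 TPM in control and 9.42 and 13.2 TPM in Qk_KO (log2 fold change 0.97, SE 0.24, adjusted p = 0.0778 by limma).

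The remaining scaffolds showed smaller differences. Pclo, piccolo, the giant partner of bassoon, was at 5.89 ± 0.445 and 7.74 ± 0.149 TPM (SD, n = 2), and Erc2, which links RIM and bassoon, was at 7.15 ± 1.56 and 11.1 ± 2.01 TPM. Ppfia2, a liprin-alpha scaffold, was at 5.36 and 2.57 TPM in the controls, while the knockout libraries were nearly equal at 6.16 and 6.17 TPM. Among the RIM genes, Rims2 was at 9.29 ± 2.06 and 12.6 ± 0.205 TPM with no overlap. Rims1 and Rims3 overlapped between groups, Rims1 at 1.87 to 3.63 TPM and Rims3 at 10.4 to 14.7 TPM over the 4 libraries.

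Neither endocytosis member was called, and both overlapped between groups. Dnm1, the neuronal dynamin that cuts vesicles from the membrane, was at 19.5 and 17.98 TPM in control, and at 13.6 and 35.2 TPM in Qk_KO. One knockout library was therefore below both controls and the other above them (log2 fold change 0.22, SE 0.41, adjusted p = 0.754 by limma). Snap91, the clathrin assembly protein AP180, was at 43.1 and 38.8 TPM in control and 39.5 and 64.5 TPM in Qk_KO, likewise with overlap (adjusted p = 0.441 by limma).

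**Figure D2:**
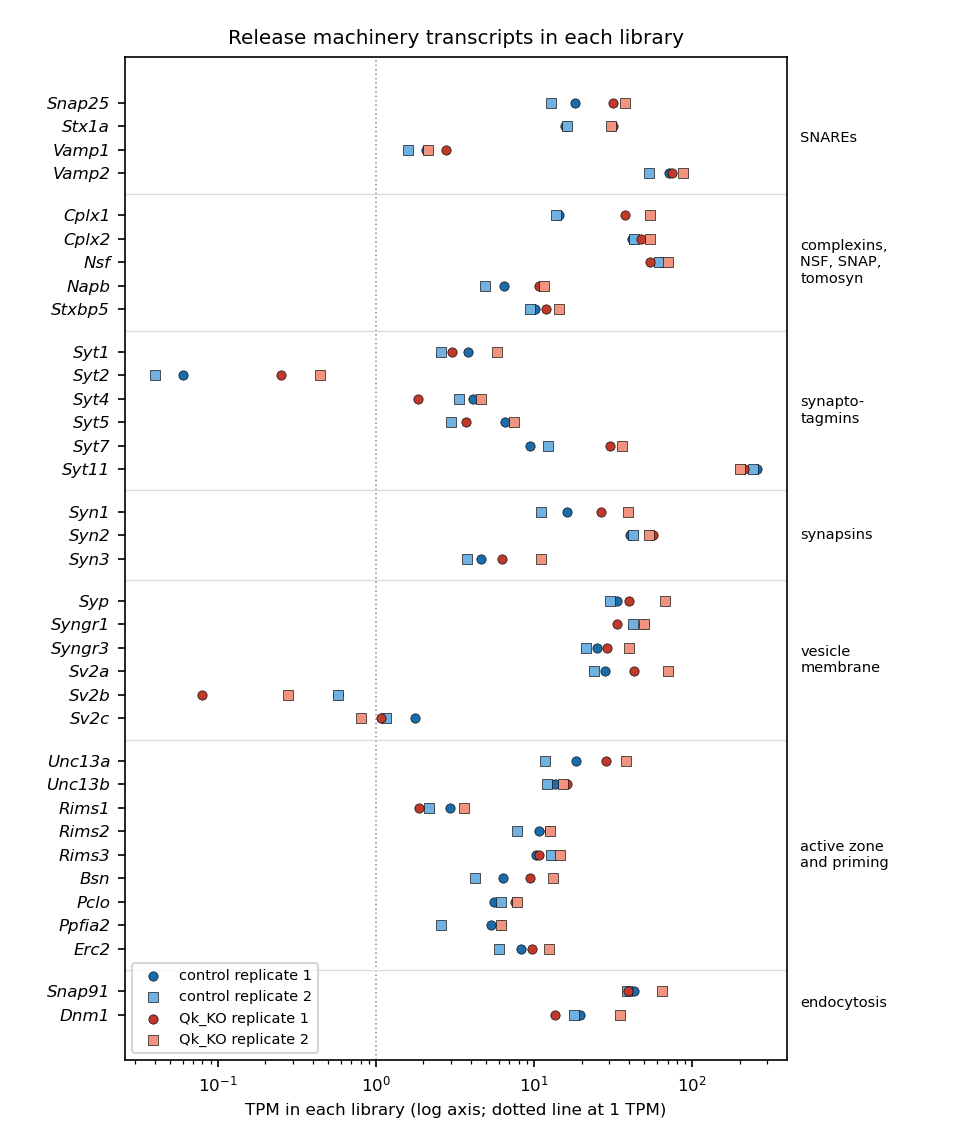
TPM (x axis, log scale) of all 35 members in each of the 4 libraries, ordered by role, with the dotted line at 1 TPM. Blue marks control and red Qk_KO; Syt11 lies highest, Syt2 and Sv2b lie left of 1 TPM, and blue and red points are separate for Snap25, Stx1a, Cplx1 and Syt7.

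Across the 33 members tested, both knockout values lay above both controls for 22, below both for 2 (Syt11 and Sv2c) and overlapped for 9. Over all genes tested, 33.6% lay apart with Qk_KO higher and 27.5% with Qk_KO lower. At an unadjusted p under 0.05 in limma, 15 members were higher and 1 lower, beside 15.8% and 12.6% of all genes. Within groups the members also moved in step. Control replicate 1 exceeded control replicate 2 for 27 of 33 members, and Qk_KO replicate 2 exceeded Qk_KO replicate 1 for 27 of 33. Over all genes tested these shares were 53.4% and 51.0%. Members are not independent of each other, and their counts rest on 4 libraries.

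The calls were sensitive to the libraries. With any 1 library left out, no member kept its call. The shares of all genes called higher were then 0% without either control, 0.0528% without Qk_KO replicate 1 and 0.43% without Qk_KO replicate 2. The same count of 0 was found without limma's mean-variance trend (15 members with an unadjusted p under 0.05, 0.173% of all genes called higher) and with no filter on low genes (12 of 35, 0.0837%). The values of Snap25, Stx1a, Cplx1 and Syt7 kept their sign throughout, at log2 fold changes of 0.89 to 1.36, 0.76 to 0.96, 1.35 to 1.86 and 1.35 to 1.71, and Snap25 was also not called after quantile normalization, which called 3 members and 1.52% of all genes higher. Of all calls 56.3% were higher in Qk_KO. A correction for GC content, added once the data had been seen, gave a share of 43.8%, against 57.4% over the same genes uncorrected. With it 5 members were called higher beside 2.77% of all genes.

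**Figure D3:**
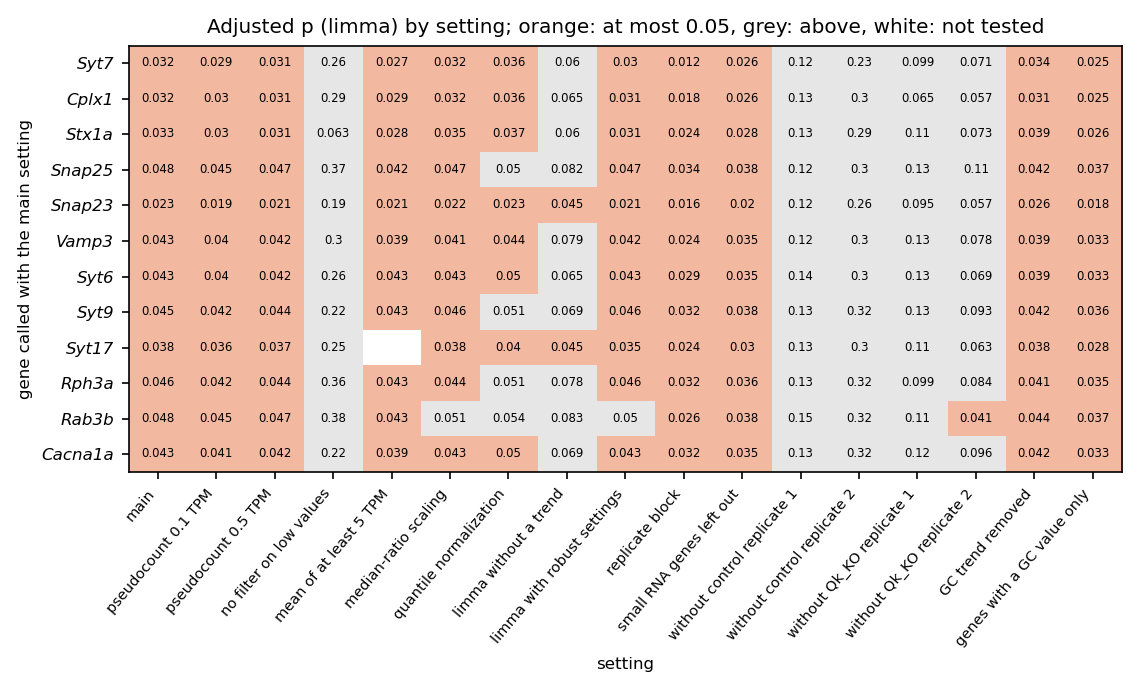
Adjusted p (limma) of the 4 called members and the 8 other release genes called, by setting; orange cells are at most 0.05, grey cells above it and the white cell was not tested. The 4 settings that leave out a library are grey for every gene except Rab3b without Qk_KO replicate 2.

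Relatives of the members that most cells express were set beside them for 10 pairs. Snap23 (Entrez gene 20619, chromosome 2, 120567671 to 120601255, plus strand), the broadly expressed relative of Snap25, fell in the knockout. It was at 22.4 and 26.3 TPM in control and at 7.80 and 6.91 TPM in Qk_KO, with a log2 difference of -1.60 ± 0.15 (SE; limma, adjusted p = 0.0225). Its groups were far apart and even within themselves. Snap25 and Snap23 together came to 39.8 TPM in control and 41.9 TPM in Qk_KO, while the ratio of Snap25 to Snap23 went from 0.811 and 0.488 to 4.04 and 5.43. The controls held less Snap25 than Snap23 and the knockout libraries held more.

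Vamp3 (Entrez gene 22319, chromosome 4, 151047300 to 151057963, minus strand), cellubrevin of recycling endosomes, also fell. It was at 92.1 and 109 TPM in control and at 53.3 and 58.6 TPM in Qk_KO (log2 fold change -0.83, SE 0.12, adjusted p = 0.0426 by limma), with no overlap. Vamp2 and Vamp3 together came to 163.3 and 162.5 TPM in control and 128.3 and 146.0 TPM in Qk_KO. Unlike that of Snap25 and Snap23, this sum was lower in the knockout. The ratio of Vamp2 to Vamp3 was 0.772 and 0.487 in control and 1.41 and 1.49 in Qk_KO. As for Snap25, the neuronal relative was the less abundant in both controls and the more abundant in both knockout libraries. The calls of Snap23 and Vamp3 were lost with any 1 library left out, at adjusted p between 0.0573 and 0.295 by limma.

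The other 8 relatives were not called. The ratio of member to relative was higher in both knockout libraries for 7 of the 10 pairs and overlapped for 3 (Syngr1 with Syngr2, Ppfia2 with Ppfia1 and Dnm1 with Dnm2). No such share was computed over other pairs of genes, so the count has no background. As single genes, 33.6% of all tested lay apart with Qk_KO higher and 27.5% with Qk_KO lower. Stx1a stood at 0.0877 and 0.099 of Stx4a, the syntaxin of general secretion, in control and at 0.229 and 0.202 in Qk_KO. Napb stayed a small fraction of Napa, with ratios between 0.0263 and 0.0466. Among the 7 pairs, Snap91 with Picalm was only narrowly apart, at 0.253 in control replicate 1 and 0.257 in Qk_KO replicate 1. These ratios are given as values and were not tested; an exact permutation test of 2 libraries against 2 cannot go below p = 0.333.

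**Figure D4:**
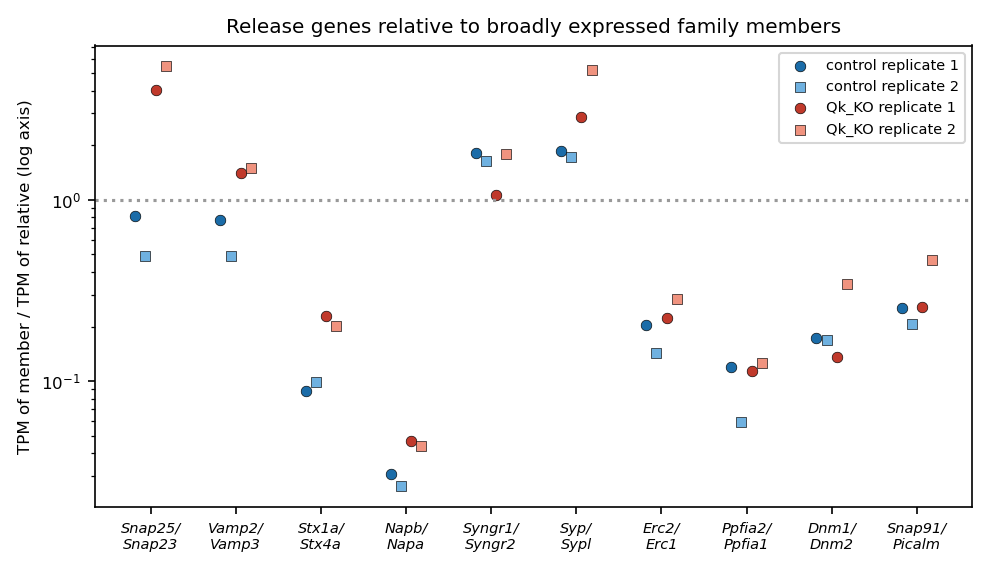
Ratio of each member's TPM to that of a broadly expressed relative (y axis, log scale) in each library, for 10 pairs. Snap25/Snap23 and Vamp2/Vamp3 lie below 1 in both controls and above 1 in both Qk_KO libraries; Syngr1/Syngr2, Ppfia2/Ppfia1 and Dnm1/Dnm2 overlap.

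Beyond the members, 85 further genes of the vesicle cycle were listed, of which 84 were in the files (Vamp7 was not analysed here) and 67 were tested. Of these, 6 were called higher, 2 lower (Snap23 and Vamp3) and 59 were not called, again beside 1.83% and 1.42% over all genes. Their median log2 fold change was 0.19. Among synaptotagmins and effectors of calcium and Rab proteins, 5 of 13 rose and none fell. Syt6 rose from 4.25 ± 0.0988 to 10.4 ± 1.59 TPM, Syt9 from 6.61 ± 0.658 to 13.1 ± 0.325 TPM and Syt17 from 1.12 ± 0.106 to 5.21 ± 0.629 TPM (SD, n = 2).

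The other calls of that group were Rph3a, the Rab3 effector rabphilin, and Rab3b, a small GTPase of secretory vesicles. Rph3a was at 3.92 and 2.84 TPM in control and 9.80 and 16.0 TPM in Qk_KO, and Rab3b at 17.86 and 17.96 TPM in control and 56.5 and 35.7 TPM in Qk_KO. Both groups were apart for each gene, with adjusted p of 0.0461 and 0.0483 by limma. Rab3a, the main Rab3 of synapses, was more abundant, at 156 and 119 TPM in control and 176 and 221 TPM in Qk_KO, and was not called. With any 1 library left out the calls of this group were lost, except that Rab3b kept its call without Qk_KO replicate 2 (adjusted p = 0.0406 by limma). Rab3a was named after its values were seen.

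Over all genes tested, 1.83% were called higher and 1.42% lower. At the active zone 1 of 13 further genes rose and none fell. The gene that rose was Cacna1a, the pore subunit of the P/Q-type calcium channel that triggers release. It was at 7.84 and 7.38 TPM in control and 14.2 and 16.1 TPM in Qk_KO (log2 fold change 0.91, SE 0.14, adjusted p = 0.0429 by limma). Its groups were apart and narrow. Among other SNAREs and cofactors 0 of 16 rose, and Snap23 and Vamp3 fell. None of 7 further vesicle proteins and transporters was called, with Scamp5 at 117 ± 5.10 and 128 ± 33.1 TPM and Dnajc5 at 103 ± 2.84 and 119.9 ± 15.2 TPM (SD, n = 2). None of 18 genes of endocytosis was called, with Clta at 262 ± 13.4 and 273 ± 6.56 TPM and Epn1 at 214 ± 6.43 and 217 ± 9.06 TPM. Beside these counts of 0 in limma, 1 of the 7 and 6 of the 18 had an unadjusted p under 0.05. Over all genes tested that share was 28.4%. The vesicular glutamate and GABA transporters Slc17a6, Slc17a7 and Slc32a1 were under the filter.

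Some neuron markers were higher in Qk_KO and others were not. The 12 neuron markers summed to 868 and 642 TPM in control and 1181 and 1248 TPM in Qk_KO. Of the 12, 2 were called higher and 0 lower, beside 1.83% and 1.42% of all genes tested, and the groups overlapped for 7. The called markers were Ina, an intermediate filament protein of neurons, at 30.3 and 15.7 TPM in control and 82.4 and 99.7 TPM in Qk_KO, and Celf4, an RNA-binding protein, at 10.7 and 6.52 TPM and 25.2 and 27.5 TPM. Rbfox3, the NeuN antigen of mature neurons, was not called, at 3.90 and 3.33 TPM in control and 4.13 and 7.49 TPM in Qk_KO. Tubb3, the tubulin of young neurons, was at 275 and 126 TPM in control and 512 and 383 TPM in Qk_KO and was not called either. Tubb3 and Gap43, a growth cone protein at 262 ± 6.16 and 363 ± 82.1 TPM (SD, n = 2), made up much of the sum. Ina, Celf4, Rbfox3, Tubb3 and Gap43 were the 5 of the list with both knockout values above both controls. Among all genes tested the share was 33.6%.

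The other 7 markers overlapped. Map2, a dendritic microtubule protein, was at 143 and 135 TPM in control and 133 and 149 TPM in Qk_KO. Stmn2, a microtubule regulator of growing axons, was at 20.9 and 12.1 TPM and 10.0 and 14.7 TPM, and Nefl, the light neurofilament, at 3.90 and 3.19 TPM and 1.60 and 3.46 TPM. Their log2 differences were 0.02, -0.37 and -0.41, and none was called by limma. Gap43, Map2, Stmn2 and Nefl were named after their values were seen.

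The neuron markers shared the order of libraries within groups that the release genes showed. Control replicate 1 exceeded control replicate 2 for 12 of 12 markers, and Qk_KO replicate 2 exceeded replicate 1 for 10 of 12. The 35 release genes summed to 869 and 779 TPM in control and to 947 and 1174 TPM in Qk_KO. Both sums were higher in both knockout libraries. The part of neuron content in the release genes' values was not tested.

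Of 5 neuroendocrine genes tested, 2 were called higher, the granule proteins Chga and Chgb, beside 1.83% of all genes tested. The list of 6 summed to 202 and 226 TPM in control and 456 and 485 TPM in Qk_KO. Glutamatergic neuron markers were low, at 9.75 to 18.6 TPM in sum, and the GABAergic list was high in Qk_KO replicate 1 alone, where Dlx1 was at 36.7 TPM and Dlx2 at 76.0 TPM. That library held less of most release genes than Qk_KO replicate 2. Astrocyte markers summed to 409 to 613 TPM, with 1 of 7 called higher (Aqp4, a water channel) and 1 called lower (Slc1a3, a glutamate transporter). The shares called over all genes tested were 1.83% and 1.42%. At an unadjusted p under 0.05 in limma, 2 of the 7 were higher and 3 lower, beside 15.8% and 12.6% of all genes.

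Oligodendrocyte precursor markers summed to 889 to 1155 TPM, mostly Olig1 and Olig2, whose groups overlapped. The other 4 of the 6 lay lower in both knockout libraries, each with an unadjusted p under 0.05 in limma. Among all genes tested, 27.5% lay apart with Qk_KO lower and 12.6% were lower at that unadjusted p. Of the 4, 1 was called lower, beside 1.42% of all genes. That was Pdgfra, the growth factor receptor of these precursors, at 53.1 and 35.8 TPM in control and 5.37 and 12.1 TPM in Qk_KO (adjusted p = 0.0461 by limma). Sox10, a transcription factor of the lineage, was at 17.2 and 40.8 TPM in control and 2.38 and 7.55 TPM in Qk_KO, Cspg4 (NG2) at 26.5 ± 5.75 and 15.9 ± 6.52 TPM and Gpr17 at 4.82 ± 4.30 and 0.32 ± 0.438 TPM (SD, n = 2). The part of precursor content in the release genes' values was not tested. Pax6 and the genes of these glial lists were named after their values were seen. Microglial, endothelial and fibroblast or mural markers summed to at most 14.4, 4.42 and 41.1 TPM, with none called of 3, 1 and 3 tested. The 3 microglial markers lay lower in both knockout libraries and the 1 endothelial marker lay higher. Of the fibroblast or mural markers 1 lay lower and 2 overlapped. Among all genes tested, 27.5% lay apart with Qk_KO lower and 33.6% with Qk_KO higher. Beside these counts of 0 called, 2, 0 and 1 markers had an unadjusted p under 0.05 in limma, as did 28.4% of all genes tested.

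**Figure D5:**
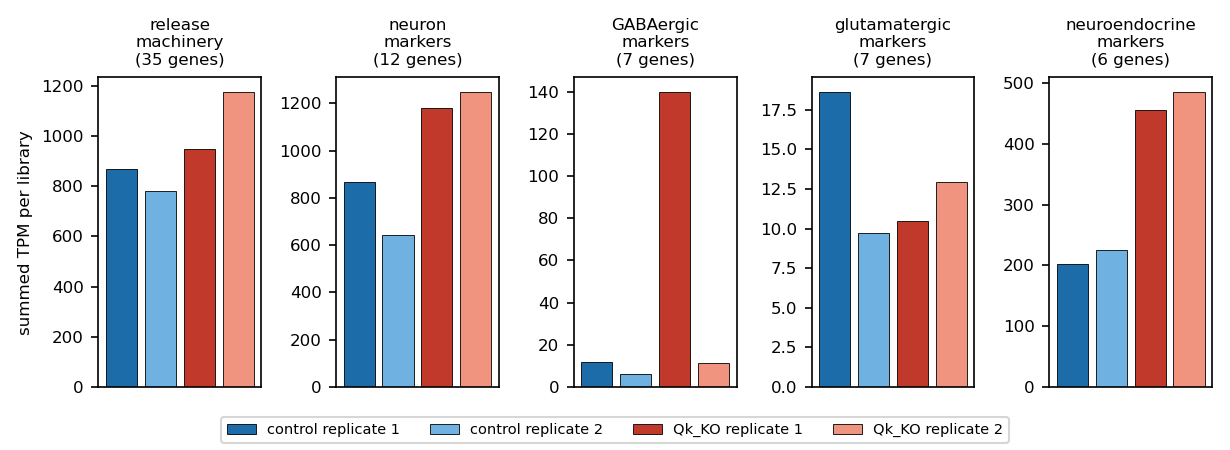
Summed TPM (y axis, from 0, a scale of its own in each panel) of the release machinery and of 4 marker lists; each bar is 1 library, blue for control and red for Qk_KO. The release genes, the neuron markers and the neuroendocrine markers are higher in both Qk_KO libraries than in both controls, and the GABAergic bar of Qk_KO replicate 1 reaches 139.8 TPM.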

How the data were processed

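Poly(A) RNA of 4 libraries, 2 control and 2 Qk_KO, was sequenced on the Ion Proton, per the labels. The deposited values are TPM per gene, with STAR 2.4.1d and RSEM 1.3.0 named in the submitters' processing notes. TPM keeps no depth, so precision rests on the spread between libraries. Samples were grouped by the labels' genotype. Values were analysed as log2(TPM + 1) for genes that averaged 1 TPM or more (13260 of 35857, including 82 small RNA genes) in limma 3.58.1 (R 4.3.3) with a mean-variance trend and Benjamini-Hochberg adjustment at 0.05. A fold change on this scale understates that of low genes. The script was tested on simulated data, where limma called 31 of 50 genes changed by log2 1 and 46 of 50 changed by log2 2. A gene not called may therefore still have changed by about log2 1. Positions and 3' untranslated regions came from GENCODE M21 (GRCm38), and promoters from RefSeq (GRCm38.p6). Figures used Python 3.11.15 and matplotlib 3.10.9.

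The members and lists were chosen with earlier results of these data known. Full values were due for called members, the 10 uncalled members with the highest mean TPM, called genes of the other lists, the 2 most abundant genes of lists with none called, relatives and up to 4 neuron markers. Values of further members were added after they were seen. Alternatives covered the pseudocount (0.1 and 0.5), the filter (none and 5 TPM), scaling, limma's settings, a replicate block, small RNA genes, GC content and each library left out.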

Additional observations from a re-analysis of the deposited data

How the results depend on the processing

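Over 16 alternatives, 794 values of 50 genes were recomputed: 691 kept their direction and their side of the threshold, 78 lost a call, 8 gained one and 17 changed sign. For all genes the 430 calls became 130 with no filter, 649 with a mean of at least 5 TPM, 41 without limma's trend, 765 without small RNA genes, 788 with the GC trend removed, 787 for genes with a GC value alone, and 1 to 92 with a library left out. Members called higher numbered 0 with no filter, 0 without the trend and 0 with any library left out. Other release genes called higher numbered 0 with no filter, 3 after quantile normalization, 1 without the trend and 0 to 1 with a library left out. Those called lower numbered 0 with no filter, 1 without the trend, 4 for genes with a GC value alone and 0 with any library left out. Beside the counts of 0 in limma, 3933 genes, 12 members and 22 other release genes had an unadjusted p under 0.05 with no filter, and 15 to 33 other release genes with a library left out. The cause of these changes was not tested, except that leaving out a library leaves fewer samples; the lone sample is then assumed to vary like the other group. With the GC trend removed 345 of 788 calls were higher (43.8%), against 57.4% of the 787 calls over the same genes without it. Without small RNA genes 6 members (adding Napb and Syn1) and 9 other release genes were called higher.

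With the replicate number as a block (replicate block), 1278 genes and 7 members (adding Napb, Sv2a and Syn1) were called, with 9 other release genes higher and 4 lower, beside 5.68% of all genes higher. The labels do not say that a number marks a shared origin. Deviations of same-numbered libraries from their group means correlated at 0.114 across genes, which cannot show whether they share an origin.

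Signs changed for Rims1 (-0.056, quantile normalization) and, with the GC trend removed, for Erc1 (-0.011), Rims3 (-0.040) and Syngr2 (-0.013). With a library left out, log2 fold changes ran from -0.19 to 0.17 for Nsf, -0.30 to 0.39 for Rims1, -0.10 to 0.32 for Rims3, -0.26 to 0.66 for Syt5, -0.45 to 0.12 for Syngr1, -0.73 to 0.25 for Syt4, -0.44 to 0.88 for Dnm1, -0.049 to 0.64 for Snap91 and -0.046 to 0.72 for Syt1.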
